A study of Danio rerio with 2 samples.

Results

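Inner ear supporting cells (IE SCs) were taken from 2 single-cell RNA libraries of 4 dpf zebrafish larvae and described gene by gene. Levels are in CPM, the UMIs of a gene scaled to a total of 1000000 UMIs, in 1 barcode or summed over a class of barcodes. A barcode was a member when *stm* reached 1000 CPM, *otogl* and *tectb* together had at least 2 UMIs, and *irg1l*, which marks SCs of the lateral line, stayed under 200 CPM. Barcodes entered with 500 or more genes seen and no more than 20% of their UMIs from mitochondrial genes, and of the 25707 that did, 271 passed, 74 of 8322 in the *hsd17b7* mutant library and 197 of 17385 in the control library. The mutant larvae (hsd17b7-KO) came from a CRISPR line with a small deletion that shifts the reading frame of *hsd17b7*, an enzyme of cholesterol synthesis, and the control larvae were wild type, both untreated. Larvae of both groups carried the reporter Tg(Brn3c:mGFP), which labels hair cells (HCs) and some neurons, and GFP-positive cells were sorted from dissociated larvae. SCs are not what this reporter marks, so the members are the SCs that the sort let through. Each group is 1 library. No difference between groups was therefore tested, and intervals in brackets are exact 95% limits of counting error only.

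SCs surround the HCs of the maculae, which sense gravity and sound through an otolith, and of the cristae, which sense rotation through a cupula. They secrete the matrix that couples these masses to the hair bundles, and they keep the ionic makeup of the fluid around them. HCs send Delta and Jagged ligands to neighbouring SCs, where Notch switches on *her* and *hey* repressors that hold the cells in the SC state. In fish, SCs can also divide or turn into HCs when HCs are lost. No sequence or coordinate is printed, since the gene tables used pair identifiers with names only.

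IE SCs made up 0.889% of kept barcodes in the mutant library (0.699 to 1.12%) and 1.13% in the control library (0.981 to 1.3%). The control library held 6651 barcodes with at least 10% globin UMIs, against 1 in the mutant library. Without them the shares were 0.889% of 8321 mutant barcodes (0.699 to 1.12%) and 1.76% of 10734 control barcodes (1.52 to 2.03%). The intervals of the shares overlapped with these barcodes counted and did not overlap without them. The share thus depended on which barcodes stood in the denominator, and the sort decides how many SCs enter it.

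Members had a median of 10824 UMIs in the mutant library (range 1437 to 43741) and 16277 UMIs in the control library (1368 to 65659). The other kept barcodes had medians of 6193 UMIs in the mutant and 7452 UMIs in the control library. The libraries shared 49 barcode sequences, none of them between mutant and control members. The mitochondrial feature NC_002333.4 took 0.804% of member UMIs in the mutant library and 6.36% in the control library, and globin took 1.06% of member UMIs in the control library. The count matrices came from different versions of Cell Ranger (9.0.1 for the mutant and 7.1.0 for the control), and version, library and genotype cannot be told apart.

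The values that chose the members are given as a description. *stm*, which encodes starmaker, a protein of the otolith, had a median of 9558 CPM over mutant members (range 1002 to 58240) and 5422 CPM over control members (1023 to 53893). At its threshold, 1 mutant and 14 control members had *stm* between 1000 and 1500 CPM, and 6 mutant and 12 control barcodes that met the other conditions had 500 to 1000 CPM. *tectb*, a beta-tectorin of the acellular matrix, was found in 68 of 74 mutant and 173 of 197 control members, and *otogl*, an otogelin-like glycoprotein, in 57 mutant and 171 control members. At the lower end of their sum, 7 mutant and 35 control members had 2 to 4 UMIs, while 7 mutant and 18 control barcodes were left out with 1 UMI and 41 mutant and 350 control barcodes with none. *irg1l* was at 0 UMIs in 71 mutant and 173 control members, and 2 mutant and 3 control barcodes were left out by it.

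**Figure D1:**
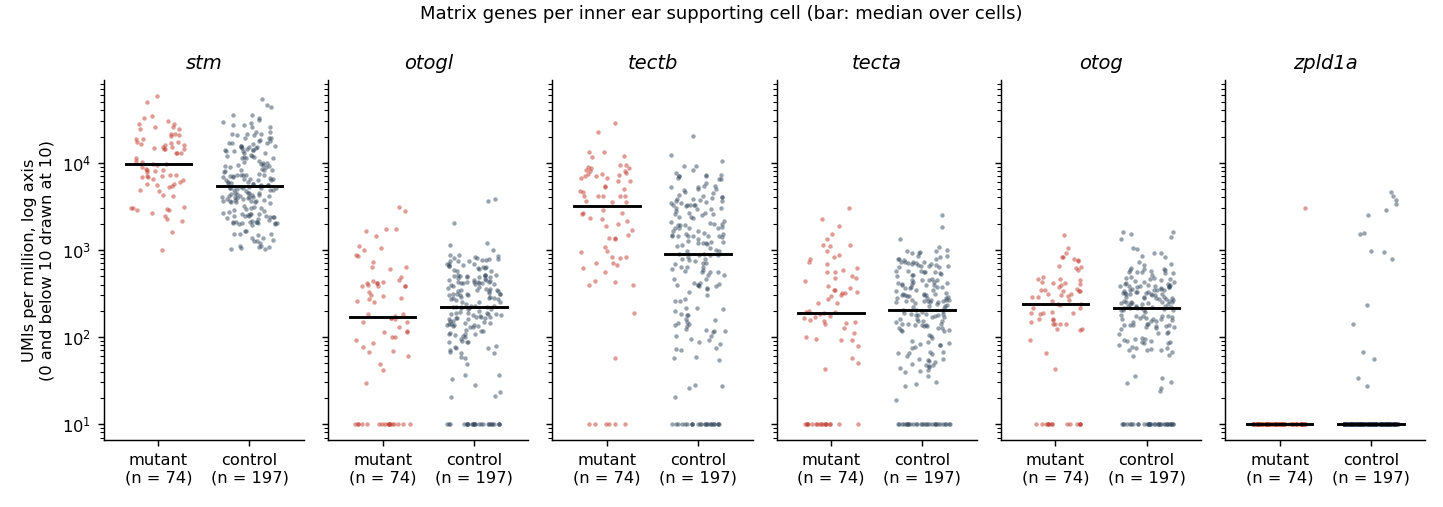
CPM (log axis) of 6 matrix genes in single inner ear supporting cells, mutant left of control; each point is 1 cell and the bar is the median over cells. *stm*, *otogl* and *tectb* were used to choose the cells; *tecta* and *otog* have medians near 200 CPM in both libraries, and *zpld1a* is at 0 in all but 1 mutant and 17 control cells.

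Matrix genes that the rule did not use were high in the same cells, which bears on the label. *tecta*, alpha-tectorin, stood at 262 CPM in mutant members (231 to 296) and 252 CPM in control members (237 to 269), and *otog*, otogelin, at 332 CPM in mutant members (298 to 370) and 283 CPM in control members (266 to 300). The log2 ratio of members to all other kept cells was 5.10 in the mutant and 4.34 in the control library for *tecta*, and 4.07 and 4.28 for *otog*. Inner ear HCs lay closer. There *otog* was at 122 CPM in the mutant and 128 CPM in the control library, with a UMI in 51.3% and 57.7% of cells. *tecta* was at 17.7 and 61.4 CPM in these HCs, with a UMI in 16.6% of mutant and 50% of control ones. *otomp*, otolith matrix protein, was present in 32 of 74 mutant and 60 of 197 control members, at 152 and 105 CPM. Otolin genes *otol1a* and *otol1b* and *sparc*, which binds collagen and calcium, were also on the side of the members in both libraries. *oc90*, otoconin, was low at 9.04 CPM in mutant members and 12.4 CPM in control members. Of 5869 genes with at least 100 UMIs in members, 263 (4.48%) were at least 4-fold above the other kept cells in both libraries. Of the otolith and tectorial matrix list, 9 of 18 such genes passed. In the other direction 1 was at least 4-fold lower, where the share of all genes was not counted. The otic transcription factors gave 7 of 17, and the FGF, BMP and Wnt genes 7 of 23. *zpld1a*, the fourth marker named for these cells, was rare.

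The genes with the largest ratio over other cells included several without an established role in this tissue. *si:ch211-133n4.6* stood at 7628 CPM in mutant members and 5308 CPM in control members, against 18.7 and 20.7 CPM in the other cells of the mutant and control library. *BX248331.2* and *bricd5* had 518 and 441 CPM in mutant members, and 633 and 284 CPM in control members. *ptprz1b*, a receptor tyrosine phosphatase, had 464 CPM in mutant members and 291 CPM in control members. *adgrg6*, an adhesion receptor needed for semicircular canal formation in zebrafish, had 253 CPM in mutant members and 322 CPM in control members. *kcnq5a*, a potassium channel subunit that stood on the HC marker list used here, was 1 of these SC genes too, at 443 CPM in mutant members and 1881 CPM in control members, and its log2 ratio of mutant to control was −2.09 in members and −1.92 over all other kept cells. The same rule also returned *slc25a22b*, a mitochondrial carrier, *jam2b*, a junction protein, *grem2b*, a BMP antagonist, *prss35* and *cryabb*, a small heat shock protein.

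Against the SCs of the lateral line, defined by *stm* and *irg1l* (237 mutant and 234 control cells), 343 of the 5869 genes (5.84%) were at least 4-fold higher in IE SCs in both libraries. Matrix genes gave 11 of 18 and otic transcription factors 5 of 17, while the Notch pathway gave 0 of 25. *prss35* had 274 CPM in mutant and 163 CPM in control members, against 0.737 and 1.46 CPM in lateral line SCs of the mutant and control library. *tnn*, tenascin N, had 142 and 111 CPM in mutant and control members, against 2.21 and 1.755 CPM in lateral line SCs. *otol1b* was at 0 UMIs in mutant lateral line SCs and 0.292 CPM in control ones, against 95.4 and 57.5 CPM in mutant and control members. Of 26 epithelial and keratin genes, 3 were at least 4-fold lower in IE SCs than in lateral line SCs. The share of all genes that were lower in this way was not counted, so this gives no result about the list.

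Against inner ear HCs, defined by *myo6b* and *lhfpl5a* (517 mutant and 560 control cells), 555 genes (9.46%) were at least 4-fold higher in both libraries. Notch genes gave 15 of 25 and Notch targets 11 of 13. *stm* had 161 CPM in mutant and 112 CPM in control HCs, and *tectb* 20.6 and 5.76 CPM. Both are genes of the rule and are among the 555, so their excess in members follows from the choice of cells. *cfd*, complement factor D, led this list, but 88.5% of its UMIs in mutant members came from 1 cell and 45.1% in control members.

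The members that could be typed held a common type with *tectb* and a rare type with *zpld1a*. The latter gene encodes a zona pellucida-like protein expressed in zebrafish cristae. Cells were typed where *tectb* and *zpld1a* together had at least 5 UMIs, which 64 mutant and 138 control members did. The other 10 mutant and 59 control members had 8 and 84 UMIs of *tectb* in all, and 0 and 2 of *zpld1a*. They belong to neither type. Their median depth was 18722 UMIs in the mutant and 15311 UMIs in the control library, against 10735 and 15573 UMIs in the *tectb* type. *tectb* made up at least 0.8 of that sum in 63 of 64 mutant cells (98.4%, 91.6 to 99.96%) and 126 of 138 control cells (91.3%, 85.3 to 95.4%). *zpld1a* made up at least 0.8 in 1 of 64 mutant cells (1.56%, 0.0396 to 8.40%) and 10 of 138 control cells (7.25%, 3.53 to 12.9%), and 2 control cells lay between. The intervals of the *zpld1a* type overlapped. Because the rule asks for *otogl* or *tectb*, it lets in only those crista cells that have some of either.

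**Figure D2:**
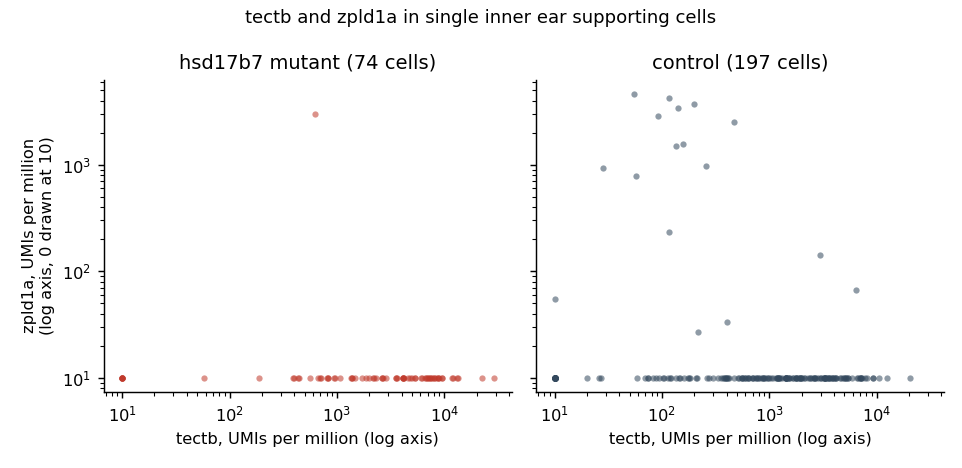
*zpld1a* against *tectb* in single inner ear supporting cells, in CPM on log axes with 0 drawn at 10, mutant panel left of control panel; each point is 1 cell. Cells with *zpld1a* above 500 CPM lie at *tectb* levels under 1000 CPM, 1 of them in the mutant library.

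Only the control library held enough *zpld1a*-type cells to list genes, and these are 10 cells. *matn4*, a matrilin, had 446 CPM in the *zpld1a* type and 8.59 CPM in the *tectb* type. In the *zpld1a* type the transcription factor *znf536* had 2166 CPM against 45.1 CPM in the *tectb* type, the adhesion gene *ncam2* 1952 against 97.9 CPM, and the chemokine *cxcl14* 1637 against 207 CPM. *slc4a11*, a transporter of the bicarbonate transporter family, had 591 CPM against 82.0 CPM. *bmp4*, which marks developing cristae, had 166 CPM against 29.6 CPM. *otog* also lay higher in the *zpld1a* type, at 812 against 223 CPM. Lower in the *zpld1a* type were *tecta* (51.8 against 346 CPM), *ptprz1b* (10.4 against 384), *BX248331.2* (24.2 against 827) and *si:ch211-133n4.6* (162 against 5246). *otol1a* was at 0 UMIs in the *zpld1a* type and 56.7 CPM in the *tectb* type. The HC genes *pvalb9* and *s100t* were lower too, at 10.4 against 1370 CPM and 41.4 against 1683 CPM. Of the 126 *tectb*-type cells, 58 had a UMI of *pvalb9* and 65 one of *s100t*. In control members with *myo6b* at 100 CPM or more these genes were at 3331 and 3387 CPM, against 36.2 and 33.0 CPM in the others. Members with *myo6b* were not set apart in this comparison of types. The median depth was 32664 UMIs in the *zpld1a* type and 15573 UMIs in the *tectb* type, and no test was run.

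Many members also held HC transcripts. *myo6b*, an unconventional myosin of HCs, was at 100 CPM or more in 32 of 74 mutant members (43.2%, 31.8 to 55.3%) and 72 of 197 control members (36.5%, 29.8 to 43.7%), and at 0 UMIs in 38 mutant and 107 control members. It lay between 50 and 200 CPM in 9 mutant and 25 control members, so the limit does not fall in a gap. The members above it had 18700 UMIs in the mutant and 22386 in the control library at the median, against 6812 and 13416 in the other members. They carried *pvalb9*, a parvalbumin, at 5998 CPM in the mutant and 3331 CPM in the control library. They carried *s100t*, a calcium-binding protein, at 5853 and 3387 CPM in the mutant and control library, and *atoh1a*, the factor that starts HC formation, at 266 and 68.4 CPM. *stm*, which the rule requires in every member, was at 10859 CPM in the mutant and 5437 CPM in the control library. *tectb*, which the rule counts together with *otogl*, was at 1815 and 738 CPM. It had a UMI in 26 of the 32 mutant and 64 of the 72 control members above the limit.

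Of the mutant *pvalb9* UMIs 53.0% came from 1 cell. In the 42 mutant and 125 control members under the limit, most HC genes were far lower, though *pcdh15a*, a tip link protein, was still at 213 CPM in the mutant and 144 CPM in the control library. *lhfpl5a*, a subunit of the transduction complex, had 0 UMIs in 42 mutant members, which allows up to 10.2 CPM, and 7 UMIs in 125 control members (3.25 CPM). *atoh1a* had 8.32 CPM in the mutant and 2.79 CPM in the control library. *stm* stood at 15200 CPM in the mutant and 10648 CPM in the control library, and *her4.1* stood at 1930 and 256 CPM. *mGFP*, the sorted reporter, had 44.4 CPM in these mutant members and 10.2 CPM in these control members, against 414 and 312 CPM in the members with *myo6b*. *hsd17b7* followed it, at 24.95 CPM in mutant and 9.29 CPM in control members under the limit, and 115 CPM in mutant and 84.8 CPM in control members at or above it. In inner ear HCs *hsd17b7* stood at 324 CPM in the mutant and 215 CPM in the control library. A barcode that holds both an SC and an HC, and a cell between these states, cannot be told apart by these values. Sorting gates against doublets were used by the authors, and of the 8% of barcodes with the highest doublet scores, 6 mutant and 35 control members were among them, 4 and 19 of these with *myo6b* at the limit or above.

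**Figure D3:**
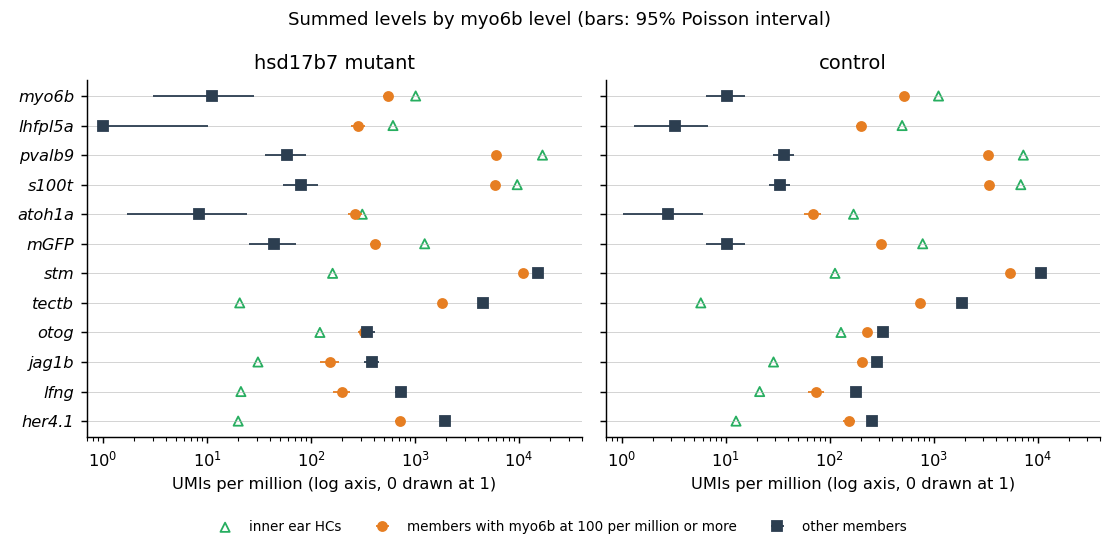
Summed CPM (log axis, 0 drawn at 1) of 12 genes in members with *myo6b* at 100 CPM or more, in the other members and in inner ear hair cells, mutant panel left of control panel; bars are 95% Poisson intervals. *pvalb9* and *s100t* lie at 5998 and 5853 CPM in mutant members with *myo6b* and under 100 CPM in the other members, while *stm* and *tectb* are above the hair cell level in both sets. *stm* and *tectb* are genes of the rule that chose the members, so their levels describe that choice.

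RNA of other tissues was present in some members. Liver and gut markers passed 2000 CPM in 2 mutant and 9 control members, neuron markers 1000 CPM in 8 mutant and 11 control members, and retinal pigment markers 2000 CPM in 0 mutant and 7 control members. Skin markers passed 2000 CPM in 0 mutant and 6 control members, and blood markers 10000 CPM in 0 mutant and 16 control members. Together 10 mutant and 41 control members passed 1 of these limits, and 33 mutant and 100 control members passed none and had *myo6b* below 100 CPM. These 33 and 100 cells are called the low-background members here. The name refers to these limits only. Every control member had at least 700 CPM of blood markers (median 1748 CPM), while the median over mutant members was 0. The control cells of this set thus still hold blood RNA. No limit was set on markers of glia, mesenchyme, macrophages or endothelium. Blood markers summed to 75.3 CPM in mutant and 10220 CPM in control members, and their part in the comparisons of genotypes was not tested. Neuron markers summed to 613 CPM in mutant and 373 CPM in control members, liver and gut markers to 5470 and 3366 CPM, skin markers to 229 and 537 CPM, and mesenchyme markers to 685 and 985 CPM, in mutant and control members in each case. Markers of macrophages and endothelium summed to 8.04 CPM in mutant and 58.3 CPM in control members, and those of lateral line SCs to 87.4 CPM in mutant and 118 CPM in control members.

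Between genotypes, 328 of 5869 genes (5.59%) were at least 2-fold higher in mutant than in control members, and 1072 (18.3%) at least 2-fold lower. These ratios use summed UMIs, in which deep cells weigh more. Members with *myo6b* at 100 CPM or more had a median of 18700 UMIs against 6812 in the other mutant members. In the control library the medians were 22386 and 13416 UMIs. Members with *myo6b* thus weigh more in the sums than their share of cells, and the gap in depth was wider in the mutant library. Without them 204 genes were higher and 595 lower. The median log2 ratio of the 5869 genes was −0.11, and −1.46 and 0.81 bounded the middle 80% of them. Centring on that median gave 473 genes higher and 937 lower. With NC_002333.4, globin and mitochondrial genes out of the totals the median was −0.22, with 232 genes higher and 1224 lower. The median was below 0 in both scalings that were not centred on it, so a list is read against the median of all genes rather than against 0.

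Notch targets stood higher in mutant members, with a larger median in cells with high levels of a heat shock gene. Their median log2 ratio was 1.04 over 17 genes, with 15 above 0, against −0.16 over the 15925 genes with at least 10 UMIs, of which 42.3% were above 0. At 100 UMIs or more, 7 of 13 targets were at least 2-fold higher and 0 at least 2-fold lower, where 5.59% of all genes were higher and 18.3% lower. Near-identical copies such as the *her4* and *her15* genes count here as separate genes, so the 13 are not independent. The same list had a median of 0.20 in lateral line SCs, 0.26 in inner ear HCs and −0.21 in neurons, and the difference between the classes was not tested. The whole Notch list, which also holds ligands, receptors and modifiers, had a median of 0.82 over 36 genes in members with 26 above 0, and 0.20 in lateral line SCs. In the low-background members its median was 0.78. The list was grouped into targets, ligands and receptors after the values had been seen.

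*her4.1*, a repressor switched on by Notch, was found in 44 of 74 mutant members and 104 of 197 control members. It stood at 1152 CPM in mutant members (1086 to 1221) and 211 CPM in control members (197 to 226), a log2 ratio of 2.45 (2.32 to 2.58), and 12.7% of its mutant UMIs were in 1 cell. Per cell the median was 98.9 CPM in mutant and 28.2 CPM in control members, and the upper quartile was 1658 CPM in mutant and 208 CPM in control members. The highest mutant cell had 14059 CPM and the highest control cell 3872 CPM. After thinning each cell to 4000 UMIs, 32 of 60 mutant members (53.3%) and 64 of 188 control members (34.0%) had a UMI of it, against 2.15% of mutant and 3.62% of control neurons, with 14 mutant and 9 control members too shallow to thin. The groups overlapped, with cells at 0 in both, and the difference was seen in the median, the upper quartile and the share of cells with a UMI. Neurons were taken as a comparison for free RNA, and the share of members with a UMI lay above theirs. After the same thinning 13.4% of mutant and 20.1% of control lateral line SCs had a UMI of *her4.1*. The part of free RNA in these values was not tested.

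The level of *her4.1* went with that of the heat shock gene *hsp70l*, which was itself higher in mutant members (18859 CPM) than in control members (5330 CPM). Across cells Spearman's rho of both genes was 0.53 over 74 mutant and 0.37 over 197 control members, as a description of cells that share a library and differ in depth. In the 21 mutant and 128 control members with *hsp70l* under 5000 CPM, *her4.1* was at 91.0 CPM in mutant and 111 CPM in control members, a log2 ratio of −0.29 (−0.97 to 0.33). The highest of these cells had 865 CPM in the mutant and 2626 CPM in the control library. In the 53 mutant and 69 control members at or above that level, *her4.1* was at 1513 CPM in mutant and 376 CPM in control members, a log2 ratio of 2.01 (1.86 to 2.16). The higher *her4.1* of mutant members was thus seen at high *hsp70l* and not at low *hsp70l*, and the part of stress in it was not tested. The low range rests on 23 mutant UMIs of *her4.1*. Members with *myo6b*, which had less *her4.1* (710 against 1930 CPM in the mutant library), were not set apart in either range. In the high range *hsp70l* itself was unequal, at 24264 CPM in mutant and 9902 CPM in control members. The limit of 5000 CPM was set after the values had been seen.

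At low *hsp70l* the summed levels of the other genes did not all follow *her4.1*. *her4.4* had 0 UMIs in the 21 mutant members, *her15.1* had a log2 ratio of 1.11 (0.50 to 1.68), *her12* one of 1.55 (0.48 to 2.52) and *lfng* one of 0.82 (0.38 to 1.24). These sums rest on few mutant cells. *her15.1* had a UMI in 7 of 21 mutant and 41 of 128 control members, and *her12* had 12 mutant UMIs in 5 cells. Per cell the median of *lfng* was lower in mutant members, at 22.9 CPM against 52.3 CPM in control members. Notch targets had a median of 0.43 over 16 genes with 10 above 0 in these cells, and 0.93 over 17 genes with 14 above 0 at high *hsp70l*. The medians of all genes were 0.05 at low and −0.05 at high *hsp70l*. *sox2* and *six1b* were higher in mutant members in both ranges, with log2 ratios of 2.06 (1.66 to 2.45) and 1.43 (1.23 to 1.63) at low *hsp70l*, and 1.3 (1.00 to 1.6) and 1.74 (1.57 to 1.91) at high *hsp70l*.

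Other genes of this family were also higher in mutant members. *her4.4* had 130 CPM in mutant members (108 to 154) and 25.4 CPM in control members (20.6 to 30.9), and *her15.1* 479 CPM in mutant members (437 to 524) and 86.0 CPM in control members (77.0 to 95.7). *her12* had 122 CPM in mutant members and 39.1 CPM in control members, and both copies named *her4.2* were higher in mutant members, with log2 ratios of 1.91 and 2.55. *her8a* and *hey2* had log2 ratios of 1.04 and 1.79, and *hey1* one of 0.67. The *her4* and *her15* genes are near-identical copies in tandem, so reads may be split among them and their single values are uncertain. *her6* was at −0.23 and *her9* at 0.28, repressors that also answer to other signals. In lateral line SCs *her4.1* had a log2 ratio of −0.20 (−0.41 to 0.00) and *her12* one of −1.59, while *her15.1* was at 1.64.

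Among the modifiers, *lfng*, a glycosyltransferase that tunes Notch, was at 390 CPM in mutant members (352 to 431) and 133 CPM in control members (121 to 145). *mfng*, of the same family, had 73.3 CPM in mutant and 29.8 CPM in control members. In lateral line SCs the log2 ratio of *lfng* was 0.94 and that of *mfng* 0.98, so these genes were higher in both kinds of SCs. *nrarpb*, a feedback inhibitor, was at 85.4 CPM in mutant and 45.6 CPM in control members. Receptors and modifiers together had a median log2 ratio of 0.50 over 10 genes, and ligands one of 0.69 over 9 genes. Receptors were mixed. *notch3* had a log2 ratio of 0.61, *notch1a* 0.38 and *notch2* −2.14, the last at 16.1 CPM in mutant and 71.0 CPM in control members.

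Ligands split by kind. *jag1b*, the Jagged ligand of the sensory patches, had 235 CPM in mutant members (206 to 267) and 248 CPM in control members (233 to 265), a log2 ratio of −0.08 (−0.29 to 0.13), and *jag1a* 4.02 CPM in mutant and 19.7 CPM in control members. *dla*, a Delta ligand of nascent HCs, had 58.3 CPM in mutant and 25.1 CPM in control members, and *dll4* 55.3 and 16.6 CPM. The Delta genes *dla*, *dlb* and *dld* were higher in members with *myo6b*, and *dll4* was not compared in this way. With *myo6b*, *dla* stood at 81.9 CPM in mutant and 39.8 CPM in control members, against 16.6 and 13.5 CPM in the other members. The Jagged gene *jag2b* was higher there too, at 112 CPM in mutant and 173 CPM in control members, against 30.5 and 45.5 CPM.

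**Figure D4:**
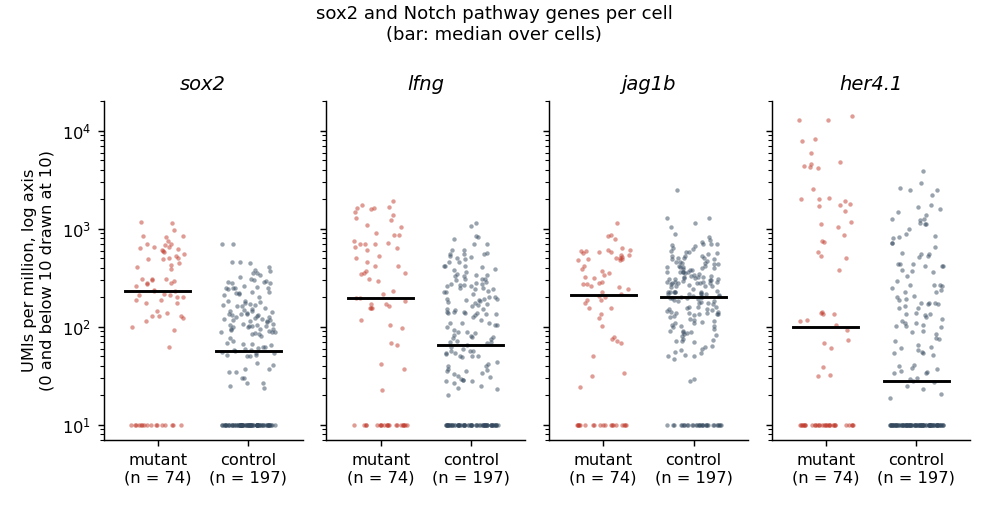
CPM (log axis, 0 and below 10 drawn at 10) of *sox2*, *lfng*, *jag1b* and *her4.1* in single inner ear supporting cells, mutant left of control; the bar is the median over cells. Medians of *sox2*, *lfng* and *her4.1* lie higher in mutant cells (235, 197 and 98.9 CPM) than in control cells (57.0, 65.8 and 28.2 CPM), and those of *jag1b* are near 200 CPM in both. Among cells with *hsp70l* under 5000 CPM, which the plot does not mark, summed *her4.1* was at 91.0 CPM in mutant and 111 CPM in control cells.

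Otic transcription factors were also higher in mutant members, with a median log2 ratio of 0.81 over 38 genes and 30 above 0. At 100 UMIs or more, 9 of 17 were at least 2-fold higher and 1 at least 2-fold lower, against 5.59% and 18.3% of all genes. Their median was 0.47 in lateral line SCs, 0.81 in inner ear HCs and 1.06 over all other kept cells, so the excess was not particular to IE SCs, and it was 0.45 in the low-background members. *sox2*, which keeps sensory progenitors and SCs, had 289 CPM in mutant members (257 to 325) and 89.3 CPM in control members (80.2 to 99.3). Its per-cell median was 235 CPM in mutant members and 57.0 CPM in control members, and after thinning it had a UMI in 68.3% of mutant and 23.4% of control members, against 2.08% of mutant and 3.10% of control neurons. *six1b*, a factor of the sensory lineage, had 1005 CPM in mutant members (944 to 1070) and 346 CPM in control members (328 to 366), with per-cell medians of 937 and 284 CPM. *six4b*, *sox21a* and *sox21b* had log2 ratios of 1.81, 2.1 and 2.64. *pax2a*, a factor of the otic placode and the utricle, had 207 CPM in mutant and 96.3 CPM in control members. *lmx1ba* went the other way, at 14.1 CPM in mutant and 47.6 CPM in control members.

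The matrix genes as a list lay near the median of all genes. The list, without the genes of the rule, had a median log2 ratio of −0.21 over 25 genes with 10 above 0, and 1 of 18 genes at 100 UMIs or more was at least 2-fold higher and 4 at least 2-fold lower, shares near the 5.59% and 18.3% of all genes. *tecta* had a log2 ratio of 0.05 (−0.15 to 0.25), *otog* 0.23 (0.05 to 0.41), *otol1a* −0.01 (−0.55 to 0.50), *sparc* 0.07 and *col9a2* −0.05 (−0.24 to 0.14). *otomp* had a log2 ratio of 0.53 (0.25 to 0.81) and *otol1b* 0.73 (0.37 to 1.08). *col2a1a*, a fibrillar collagen, was at 307 CPM in mutant and 461 CPM in control members, and *clu*, clusterin, at 17.1 CPM in mutant and 239 CPM in control members, with a log2 ratio of −3.81 in members and −2.83 over all other kept cells. *zpld1a* was at 43.2 CPM in mutant members, all from 1 cell, and 187 CPM in control members. *tectb*, a gene of the rule, had 2778 CPM in mutant members (2676 to 2884) and 1371 CPM in control members (1335 to 1409), and a log2 ratio of 1.02 (0.95 to 1.09), or 1.25 with a mean of per-cell shares in place of summed UMIs. In members with *hsp70l* under 5000 CPM the ratio of summed *tectb* was 0.02 (−0.13 to 0.18). The per-cell median of *tectb* there was 3533 CPM in mutant and 978 CPM in control members. The rule asks for 2 UMIs of *otogl* and *tectb*, so a shallow barcode can enter only at a high CPM of these genes. Over all members the median depth was 10824 UMIs in the mutant and 16277 UMIs in the control library. The per-cell median of *tectb* and the mean of its per-cell shares therefore give no result about genotype. The summed ratio also comes from a gene that chose the cells, and is a description only.

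**Figure D5:**
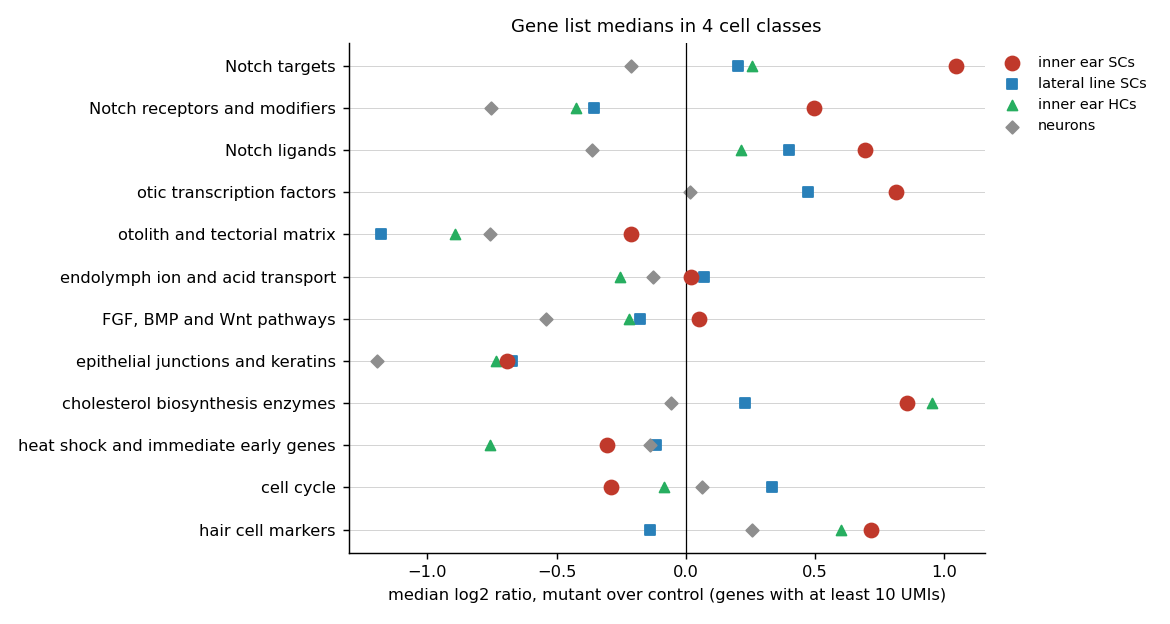
Median log2 ratio of mutant over control for 12 gene lists (rows) in inner ear supporting cells, lateral line supporting cells, inner ear hair cells and neurons, over genes with at least 10 UMIs in the class. Notch targets lie at 1.04 in inner ear supporting cells (0.43 in those with *hsp70l* under 5000 CPM, not drawn) and between −0.21 and 0.26 in the other classes; otic factors lie at 0.81 in both inner ear classes.

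Ion transport, growth factor and epithelial genes gave smaller or shared differences. The list of sterol regulators, uptake and efflux had a median log2 ratio of −0.16 over 26 genes. The endolymph transport list had a median of 0.02 over 28 genes, with *atp1b1a*, a sodium pump subunit, at 743 CPM in mutant and 635 CPM in control members, and *slc12a2*, a chloride cotransporter, at 110 and 125 CPM. *atp2b1a*, a plasma membrane calcium pump, was at 726 CPM in mutant and 389 CPM in control members. The FGF, BMP and Wnt list had a median of 0.05 over 41 genes. *fgf3*, a ligand that induces the otic placode, was at 67.3 CPM in mutant and 11.4 CPM in control members, *fgf10a* at 136 CPM in mutant and 64.5 CPM in control members, and *id2a*, a BMP-responsive inhibitor, at 331 CPM in mutant and 141 CPM in control members. *axin2*, a Wnt target, was at 6.03 CPM in mutant and 30.6 CPM in control members, and *bmp4* at 17.1 and 42.5 CPM. Epithelial junction and keratin genes had a median of −0.69 over 41 genes, with 35 below 0, and also −0.67 in lateral line SCs and −0.73 in inner ear HCs. *epcam*, an epithelial adhesion protein, was at 1156 CPM in mutant and 1867 CPM in control members. *krt18a.1*, a simple epithelial keratin, was at 10.0 CPM in mutant and 143 CPM in control members, with log2 ratios of −3.83 in members and 0.71 in lateral line SCs.

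Cholesterol enzymes had a median log2 ratio of 0.85 over 20 genes in members, with 14 above 0, but most had few UMIs, and only 7 reached 100. Of these 1 was at least 2-fold higher and 1 at least 2-fold lower, against 5.59% and 18.3% of all genes, so the counts give no result about the list. *fdps*, a farnesyl diphosphate synthase, was at 57.3 CPM in mutant members (43.4 to 74.2) and 24.9 CPM in control members (20.1 to 30.4). *hmgcs1*, at the entry of the pathway, was at 45.2 CPM in mutant and 26.7 CPM in control members, and *msmo1*, a sterol methyl oxidase, at 40.2 CPM in mutant and 25.9 CPM in control members. *ggps1*, which leads to a side branch, was at 54.2 CPM in mutant and 134 CPM in control members. The list's median was 0.95 in inner ear HCs, 0.23 in lateral line SCs and −0.06 in neurons. It was −0.31 in members with *myo6b* under 100 CPM and 0.00 in the low-background members. The targeted gene *hsd17b7* had 82.4 CPM in mutant members (65.5 to 102) and 42.7 CPM in control members (36.5 to 49.8). Its 3′ counts do not read the deletion and so do not check the genotype.

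The stress genes differed in both directions. The list of heat shock and immediate early genes had a median log2 ratio of −0.31 over 43 genes but summed to 90676 CPM in mutant and 58460 CPM in control members. *hsp70l*, an inducible heat shock protein, had 18859 CPM in mutant and 5330 CPM in control members, and its log2 ratio was 1.66 in lateral line SCs and 1.11 in inner ear HCs. *hsp70.1* had a log2 ratio of 1.61, and *hsp90aa1.2* had 20012 CPM in mutant and 13876 CPM in control members. *hsp90aa1.1* had 214 CPM in mutant and 1081 CPM in control members, with 29.6% of its mutant UMIs in 1 cell. The immediate early gene *fosl1a* was at 526 CPM in mutant and 1014 CPM in control members, and *jun* at 2508 CPM in mutant and 1522 CPM in control members. Such genes can respond to dissociation and sorting, and handling cannot be told apart from genotype with 1 library each. The cell cycle list had a median of −0.29 over 36 genes. HC markers had one of 0.71 over 31 genes in all members and −0.34 in the members with *myo6b* under 100 CPM.

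The largest ratios included genes that moved in the whole library. *AL935186.10* had 99.4 CPM in mutant and 9.58 CPM in control members, and its log2 ratio was 3.38 in members and 1.93 over all other kept cells. *sox21b* was at 2.64 in members and 2.64 over all other kept cells. *rasd4*, a Ras-like gene, had 158 CPM in mutant and 31.1 CPM in control members, and log2 ratios of 2.34 in members and 0.64 over all other kept cells. *tuba1a*, an alpha-tubulin, had 377 CPM in mutant and 71.0 CPM in control members and a log2 ratio of 2.16 over all other kept cells. *zgc:55461* was at 360 CPM in mutant and 45.3 CPM in control members. *atoh1a* was at 173 CPM in mutant and 31.9 CPM in control members. *apoc1*, an apolipoprotein of liver and yolk, had 580 CPM in mutant and 75.9 CPM in control members, but 96.7% of its mutant UMIs came from 1 cell.

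At the low end, the pigment genes *tyrp1b*, *dct* and *pmela* had 0, 0 and 2.01 CPM in mutant members and 509, 247 and 150 CPM in control members. They were also lower over all other kept cells, with log2 ratios of −12.13, −10.62 and −7.04. *fabp11b* and *BX005417.1* were at 0 UMIs in mutant members and at 231 and 128 CPM in control members, 74.2% of the *fabp11b* UMIs in 1 cell, as were 44.5% of those of *tyrp1b* and 69.7% of those of *mylpfa* below. *mybpha* and *mylpfa*, muscle genes, *rgs5b*, *ccn2a* and *cldnc* had 1.00 CPM in mutant members, each from 1 UMI, and 44.3 to 55.2 CPM in control members. *fabp2*, a fatty acid binding protein of the gut, and *rgra*, of the retina, had 64.3% and 51.2% of their control UMIs in 1 cell. All 11 genes of the retinal pigment list were below 0, with a median of −4.85 and sums of 40.2 CPM in mutant and 1589 CPM in control members, and this list was made after the values had been seen.

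In the low-background members the *her* genes, *sox2* and *lfng* kept their side. *her4.1* had a log2 ratio of 2.77 there, *her15.1* 2.59, *her12* 2.53, *her4.4* 2.61, *lfng* 1.96, *sox2* 1.89 and *six1b* 1.59. These cells still include those with high *hsp70l*, and with *hsp70l* under 5000 CPM the ratio of *her4.1* was −0.29. The control cells among them also still hold blood RNA, and glia markers were not used to choose the set. *tecta* was at 0.63 and *otog* at −0.01. Glia also use *her4.1*. The list of glia and neural progenitor markers, which holds *her4.1* itself, summed to 1614 CPM in mutant and 451 CPM in control members. Its median log2 ratio was −0.63 over 7 genes, with 3 above 0 and 4 below. Some markers of glia on it were low over all members. *gfap* had 5.02 CPM in mutant and 7.77 CPM in control members, *slc1a2b* 5.02 and 8.03, and *mbpa* and *mpz* had at most 4 UMIs in either library. A part of glia in the *her4.1* values was not tested. *fabp7a*, a fatty acid binding protein of neural progenitors on the same list, was not low. It was at 268 CPM in mutant members, found in 55 of 74 cells. In control members it was at 102 CPM, in 96 of 197 cells with 23.4% of the UMIs in 1 of them. *sox10*, also on the list and expressed in otic epithelium, was at 178 CPM in mutant and 106 CPM in control members.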

How the data were processed

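For 2 libraries of cells from 4 dpf larvae the authors deposited unnormalised counts of UMIs over 32059 features (81920586 UMIs in the mutant and 180590990 UMIs in the control library). Per the file headers they were made with Cell Ranger 9.0.1 for the mutant and 7.1.0 for the control, and the submitters' processing notes name GRCz11. Counts were read as deposited with Python 3.11.15, scipy 1.17.1 and scanpy 1.11.5. Of 10119 mutant and 19270 control barcodes, 8322 and 17385 were kept. The members and the gene lists were chosen with earlier results of these data known. UMIs were summed over the members of a library and given as CPM, with exact Poisson limits. Log2 ratios have exact conditional binomial limits, shares have Clopper-Pearson limits, all at 95%. A count of 0 was entered as 3 UMIs, which makes that ratio a bound. UMIs correct for amplification, but the limits cover counting error only. Gene counts used genes with at least 100 UMIs in members and list medians those with at least 10, of 19 lists with 509 of 527 symbols in the files. In members the genes of the rule were left out of the lists, but not out of the counts over all genes. Genes were named by rule: the 15 largest smaller-of-both-libraries ratios over all other kept cells, 8 each over lateral line SCs and inner ear HCs, the 12 highest and 12 lowest ratios of mutant to control, and the listed genes. Genes and lists given beside them were chosen after their values were seen, also the retinal pigment list and the grouping of Notch genes. Inner ear HCs had *myo6b* at 500 CPM or more, at least 2 UMIs of *lhfpl5a* and none of *lhfpl5b*. Neurons had at least 3 UMIs of *elavl3* and *elavl4*, no *lhfpl5a*, *stm* under 1000 CPM and *myo6b* under 200 CPM. The calculation of ratios and limits was checked on simulated counts, while no difference between the libraries was tested. Scrublet marked 1 mutant and 0 control barcodes at its automatic thresholds, so it did not work here, and the 8% highest scores were left out as an alternative. Harmony and clustering were not run. Duplicated symbols were kept apart by identifier.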

Additional observations from a re-analysis of the deposited data

Results flagged for a closer look

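*her4.1* and its close copies had ratios on opposite sides of 0 in inner ear SCs and in other classes of cells, with the counting interval away from 0 in both. They are listed because the direction differed between classes under the same contrast, and the difference itself was not tested, since each group is 1 library. Only these genes were looked up, by name. How many of all genes differ in this way was not counted, so the listing does not show that they are unusual. The log2 ratio of mutant to control was 2.45 for *her4.1* in inner ear SCs and −0.68 in neurons. In neurons *her4.1* was low, at 34.7 CPM in the mutant and 55.5 CPM in the control library. A UMI of it was found in 2.56% of mutant and 4.87% of control neurons. Neurons also served as the comparison for free RNA, and its part in these values was not tested. For the *her4.2* copy ENSDARG00000094426 it was 2.55 in inner ear SCs and −0.72 in neurons. For *her4.4* it was 2.35 in inner ear SCs, −2.17 in inner ear HCs and −1.19 in neurons. In inner ear SCs with *hsp70l* under 5000 CPM the ratio was −0.29 for *her4.1* and −0.94 for the *her4.2* copy, so for both genes the opposite direction was seen only with the cells at high *hsp70l* included.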

How the results depend on the processing

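No paired analysis was possible because each group is 1 library, and no replicate could be left out. The members with *myo6b* under 100 CPM, those with *hsp70l* under 5000 CPM, the low-background members, the 8% highest doublet scores and the totals without NC_002333.4 were chosen after seeing the data, and the planned use of automatic doublet thresholds was not run because they marked 1 barcode in all. Of the values named for single genes 435 stayed within their counting interval, 204 moved beyond it and 5 reversed, and of the counts, shares and list medians 197 held, 28 moved and 2 reversed. A change of sign was called reversed only for genes at least 2-fold apart in the main setting and for lists whose interval excluded 0. Other changes of sign, such as those of the cholesterol, cell cycle and matrix lists below, are among the values that held or moved. The cause was not tested unless the setting itself takes away genes or cells. Over all settings *her4.1* ranged over −0.29 to 2.91 (2.22 to 2.91 without the setting on *hsp70l*), *sox2* 1.59 to 2.06, *lfng* 0.82 to 2.03 and *six1b* 1.42 to 1.71 (log2), the Notch list's median over 0.55 to 1.03 and the otic factors' over 0.45 to 0.92. Genes at least 2-fold higher numbered 86 after thinning to 4000 UMIs, 109 at 300 UMIs or more, 844 at 30 UMIs or more, 204 in members with *myo6b* under 100 CPM and 166 in low-background members, and genes at least 2-fold lower 262, 443, 2418, 595 and 466 under the same settings. Genes at least 4-fold above other cells numbered 156 after thinning and 175 at 300 UMIs or more. The control share of members was 0.932% with 5 or more *otogl* and *tectb* UMIs, 0.930% after thinning and 1.76% without globin-high barcodes. Thinning gave list medians of 0.43 for ion transport, −0.35 for cholesterol enzymes and 0.43 for the cell cycle. The cholesterol enzymes were at −0.31 in members with *myo6b* under 100 CPM, and the matrix list at 0.17 with a mean of per-cell shares. HC markers were at 0.53 without members that pass the HC gate, 0.43 with per-cell shares, −0.34 in members with *myo6b* under 100 CPM and −0.29 in low-background members. In the last 2 sets *zgc:55461* was at −0.36 and −0.80, and *apoc1* at −1.47 in the first. The *zpld1a* type made up 0% of mutant cells without members passing the HC gate or with type limits of 0.9 and 0.1, and 3.08% of control cells with 5 or more *otogl* and *tectb* UMIs. With *hsp70l* under 5000 CPM, *her4.1* was at −0.29 and the *her4.2* copy ENSDARG00000094426 at −0.94, and the list medians were 0.29 for matrix genes, 0.30 for the cell cycle and 0.40 for HC markers. Mutant members hold 995530 UMIs, against 3861739 in control members, so mutant levels have the wider counting limits.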
